A study of Danio rerio with 4 samples.

Results

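The genes met, bcl2, myca and mycn are members of a group of transcripts described in other systems as targets of the miR-34 family of microRNAs. They were followed here in zebrafish (Danio rerio) through every probe set whose single gene symbol in the array's annotation was one of these names. Of the 4 genes, 3 had a probe set and 1, bcl2, had none, also when its synonym bcl2a and its gene number were searched. The annotation gave 1 probe set for met (gene number 100150664), 1 for myca (30686) and 2 for mycn (252851). These are 3 of the 8793 genes the annotation names by 1 symbol, and 4 of the 15502 probe sets that are not array controls. The 2 mycn probe sets read the same gene and are not replicates.

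The arrays were hybridised with RNA of GFP-positive cells sorted at 3 days after fertilization from a tissue block that holds the kidney. All embryos were Tg(cmyb:EGFP) on the AB background, so the cmyb promoter marked the sorted cells in both groups. One group had been injected with a morpholino against miR-34b (the morphants, n = 2 arrays) and the other with a control morpholino (n = 2 arrays). A morpholino is an antisense oligomer that blocks an RNA's processing or use. Each array came from 20000 sorted cells, and the design text calls the replicates independent biological sets, without saying how many embryos were pooled. With 2 arrays a group, an exact two-sided permutation test cannot give a p below 0.333.

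A microRNA guides a silencing complex to messages that pair with its seed, most often in the 3′ untranslated region, and lowers their translation or stability. The miR-34 family, induced by p53 in mammals, shares its seed with miR-449, and both are known from cells with motile cilia. In human and mouse cells met, bcl2 and MYC or MYCN are among its classic targets. met encodes the receptor tyrosine kinase for hepatocyte growth factor. bcl2 encodes an inhibitor of mitochondrial cell death. myca and mycn encode basic helix-loop-helix leucine zipper transcription factors that drive growth and ribosome synthesis. The comparison asks whether these messages differ when miR-34b is targeted. Seed matches were not looked for in the zebrafish messages, so whether they are targets in this fish was not tested.

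The values are log2 signals that had been scaled to a common trimmed mean, which was 500.1 on each array on the linear scale. The poly-A spike-in controls averaged 9.52 and 8.72 (log2) on the morphant arrays, against 9.91 and 9.87 on the control arrays, so morphant replicate 2 had the dimmest of them. Group differences are morphant minus control on the log2 scale, fitted with limma over 11626 probe sets with Benjamini-Hochberg adjustment. In this fit 2.61% of all probe sets passed an adjusted p of 0.05. Those higher in the morphants made up 2.49% of all and those lower 0.12%, and the median difference over all was −0.017. limma called 0 probe sets when either morphant array or the filter was left out and with unmoderated p-values, so no call from the filtered fit of all 4 arrays held there. Markers of the labelled cell type were present. All 9 multiciliated cell markers with a probe set lay above the brightest control for a sequence absent from zebrafish on all 4 arrays. Markers of myeloid cells and skeletal muscle lay above that level too, with 11 of 11 and 17 of 18. So did 15 of 16 for liver, pancreas and gut, 10 of 11 for epidermis and 8 of 9 for erythroid cells. Neural (11 of 15), pronephric (6 of 8), blood progenitor (6 of 9) and endothelial (3 of 5) markers did so less often. The level is low, 3.71 to 4.93 beside array medians of 7.18 to 7.29. The share of all probe sets above it was not counted, so passing it does not single out a cell type. In such bulk samples, fewer cells of a type and less RNA per cell cannot be told apart.

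met was higher on both morphant arrays than on both control arrays, at a little over 2-fold, and missed the adjusted threshold. Its log2 signal was 8.87 and 8.83 on the morphant arrays, against 7.41 and 7.85 on the control arrays. The groups did not overlap, the morphant arrays lay within 0.036 of each other, and the control arrays were 0.45 apart. The group means were 8.85 ± 0.025 in the morphants and 7.63 ± 0.32 in the controls (SD, n = 2 each). The difference was 1.22 ± 0.21 (SE; 95% interval 0.69 to 1.75), or 2.33-fold (1.61 to 3.36). The unadjusted p was 0.00176 and the adjusted p was 0.0579 in limma, and the exact permutation p was 0.333, the smallest possible. A difference of this size or larger in either direction was found in 3.86% of probe sets tested, and both morphant arrays were above both control arrays in 25.1%. By p-value met stood at place 353 among 11626. All 4 of its signals lay at least 2.47 (log2) above the brightest absent-sequence control of the same array.

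The met difference was 1.00 without control replicate 1 and 1.44 without control replicate 2. With morphant replicate 1 or 2 left out it lay between these values. The adjusted p with 1 array left out lay between 0.0810 and 0.175. met passed the threshold, at an adjusted p between 0.0125 and 0.0335 in limma, under 4 of the 14 alternatives. These were leaving out the dimmest 50%, a pseudocount of 16, one of 64, and a variance prior that follows signal and resists outliers. More probe sets were called higher there in all, 382 of 7751 and then 402, 500 and 508 of 11626, in that order. The fit as reported called 290 higher. Without the filter on dim probe sets the adjusted p of met was 0.196, and with unmoderated p-values 0.369, the highest over the 14 alternatives.

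**Figure D1:**
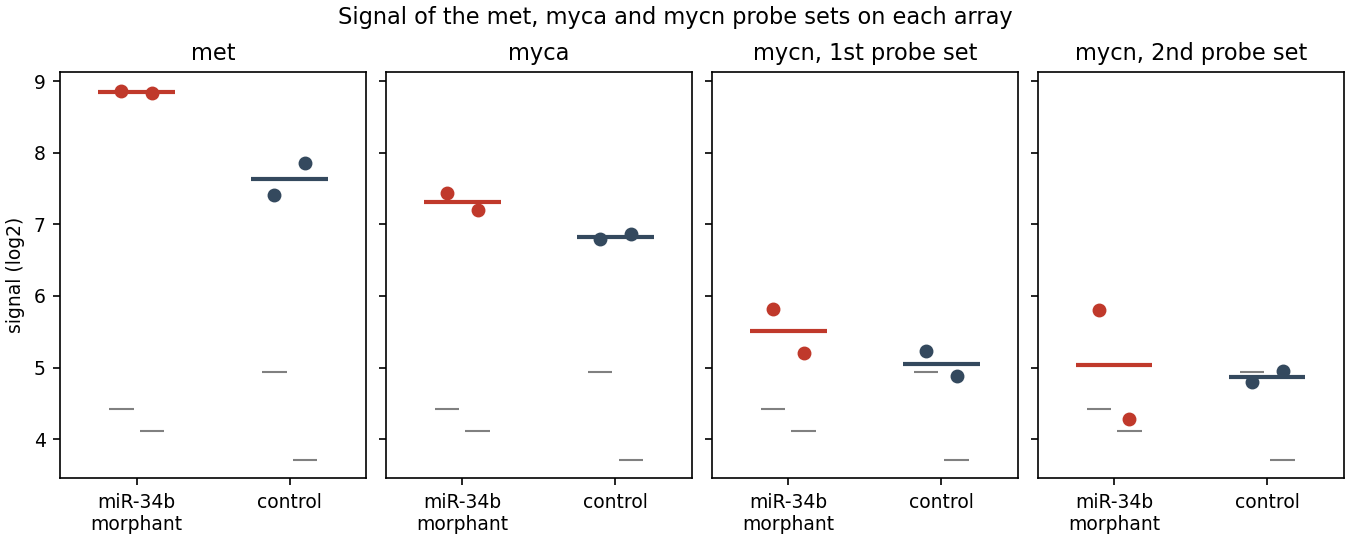
Log2 signal of each member probe set (vertical axis) on the 2 miR-34b morphant arrays (red points) and the 2 control arrays (dark points), with replicate 1 left of replicate 2, the group mean as a bar, and the brightest absent-sequence control of each array as a short grey line. The met points of the morphants (8.87 and 8.83) lie above those of the controls (7.41 and 7.85), the myca groups are also separate, and the mycn points overlap near the grey lines. Levels of different probe sets are not comparable with each other.

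Markers of several cell types were read beside met. Of the 9 multiciliated markers tested, 8 rose, 0 fell and 1 did not pass, while 2.49% of all probe sets rose and 0.12% fell. The linear signals of these 9 summed to 18657 and 18015 on the morphant arrays, against 5261 and 5673 on the control arrays. In vertebrate embryos met is also known from motor neurons and migrating muscle precursors. Neural markers had 10 of 12 values above 0, beside 48.0% of all probe sets, and 0 past limma's threshold. Before adjustment 5 of the 12 were higher with a p under 0.05 in limma, beside 11.6% of all probe sets. The neural sums, over all 15 with a probe set, were 4815 and 4488 in the morphants and 3466 and 4424 in the controls. Skeletal muscle markers had 17 of 17 below 0 and 0 past limma's threshold. Of the 17, 7 were lower with a p under 0.05 before adjustment, beside 6.10% of all probe sets. The muscle sums, over all 18 with a probe set, were 128659 and 101934 in the morphants and 163917 and 124010 in the controls. These muscle sums overlapped between the groups. No marker of the 3 lists was listed at 0 on any array. Median differences of the other 7 marker lists lay between −0.14 and 0.34. Beside shares of 2.49% and 0.12% over all probe sets, limma called 3 markers higher and 0 lower within them. The calls were 1 of 6 pronephric, 1 of 15 liver, pancreas and gut, and 1 of 10 epidermis markers tested. The myeloid, blood progenitor, erythroid and endothelial lists, with 11, 6, 7 and 3 tested, had 0. These were clcnk, a chloride channel of the kidney tubule (1.55 ± 0.21, adjusted p = 0.0320), cpb1, a pancreatic carboxypeptidase (1.92 ± 0.16, adjusted p = 0.0183), and pkp3a, a plakophilin of desmosomes (1.11 ± 0.16, adjusted p = 0.0374). Of 6 pronephric markers tested, 4 had separate groups in the higher direction, beside 25.1% of all probe sets, and limma called only clcnk. Before adjustment 3 of these 6 were higher and 0 lower with a p under 0.05 in limma. Markers of liver, pancreas and gut ran from −2.78 to 2.46. Of the 15 tested, 2 were higher and 5 lower at that unadjusted p, beside 11.6% and 6.10% of all probe sets. The part of these cells in the met difference was not tested.

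myca was higher on both morphant arrays by a smaller amount that did not pass. The log2 signal was 7.43 and 7.19 on the morphant arrays, against 6.79 and 6.86 on the control arrays. The groups were separate, with a gap of 0.33 between the lower morphant and the higher control array. The means were 7.31 ± 0.17 in the morphants and 6.83 ± 0.046 in the controls (SD, n = 2 each). The difference was 0.49 ± 0.18 (SE; 95% interval 0.043 to 0.93), or 1.40-fold. limma gave an unadjusted p of 0.0368, which 11.6% of probe sets passed in this direction, and an adjusted p of 0.243. All 4 signals were at least 1.86 above the brightest absent-sequence control. The value lay between 0.33 and 0.61 over the 13 alternatives that kept the probe set, with adjusted p from 0.240 to 0.598.

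mycn was dim, and neither of its probe sets separated the groups. The first had log2 signals of 5.81 and 5.20 on the morphant arrays, against 5.23 and 4.88 on the control arrays. One morphant array lay above the rest and the other between the controls. The difference was 0.45 ± 0.27 (SE; 95% interval −0.23 to 1.13; adjusted p = 0.458 in limma). The second had 5.80 and 4.28 on the morphant arrays, against 4.79 and 4.96 on the control arrays. Here the morphant arrays held both the highest and the lowest value, 1.52 apart, against 0.16 between the controls. This probe set was among the dimmest 25% and is given from the same fit without that filter, at 0.17 ± 0.57 (95% interval −1.46 to 1.79; adjusted p = 0.928). The interval spans 0.36-fold to 3.47-fold, so a change as large as that of met in either direction lay within it.

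On control replicate 1 the second mycn probe set lay 0.14 below the brightest absent-sequence control, and on the other arrays 0.17 to 1.38 above it. The first lay 0.29 to 1.39 above it on all 4 arrays. Both probe sets were highest on morphant replicate 1. Without morphant replicate 2 they gave 0.76 and 0.93, and without morphant replicate 1 they gave 0.14 and −0.59, with no call in any of these fits. The direction of the second thus changed with 1 array.

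**Figure D2:**
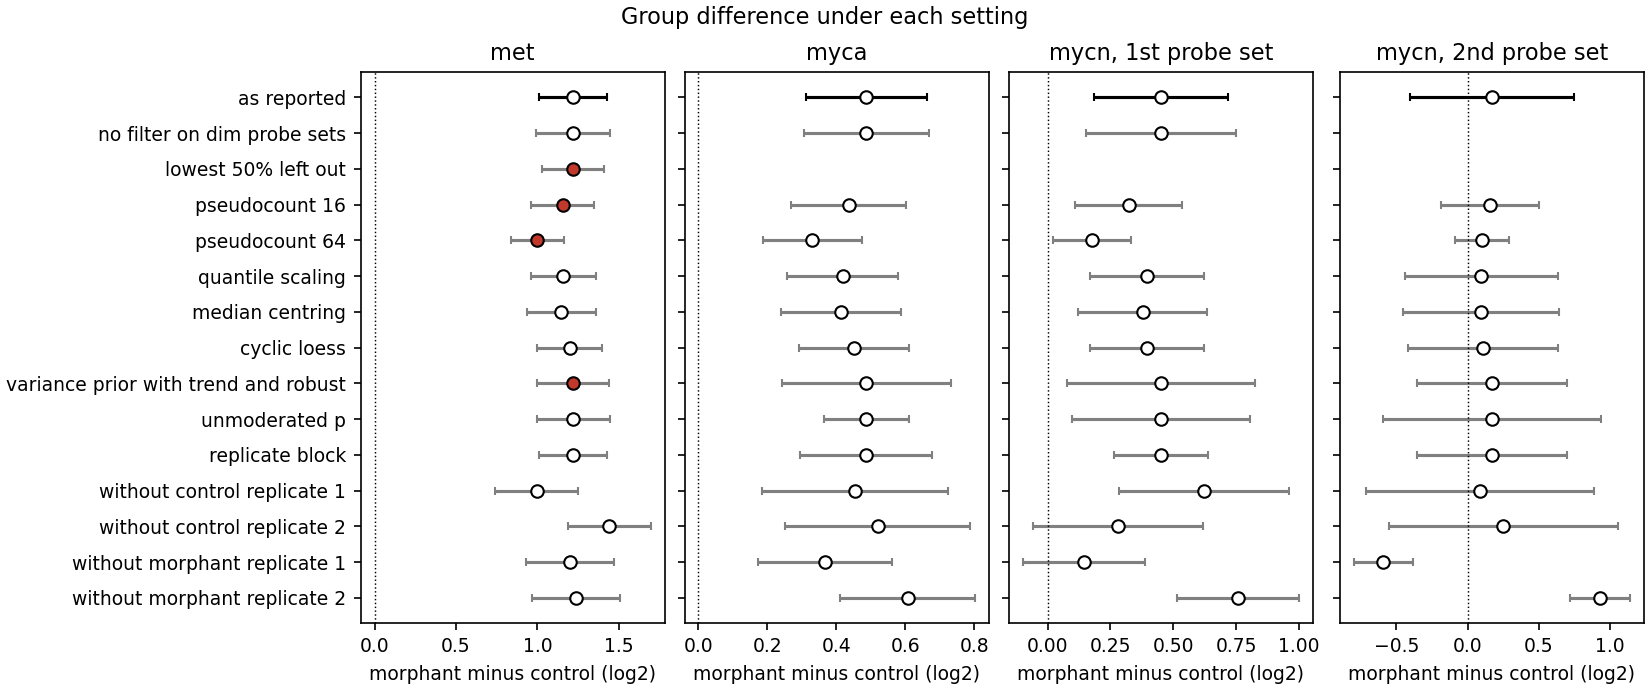
Morphant minus control difference (horizontal axis, log2) of each member probe set under each processing setting (rows), with bars of 1 SE and filled points where the adjusted p was under 0.05; an empty row has no value of its own, because the lowest 50% held the probe set or, for the second mycn probe set, because its reported value already comes from the fit without the filter. The met values run from 1.00 to 1.44 with 4 filled points, and the second mycn probe set is the only one of the 4 panels with a value below 0 (−0.59).

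Of the 3 member probe sets in the filtered fit, 0 passed limma's threshold, beside 2.61% of all probe sets. In the higher direction 2 had an unadjusted p under 0.05 in limma and 2 had separate groups, beside 11.6% and 25.1% of all probe sets in that direction. The likeness of other genes was measured as the root mean square distance over the 4 arrays between log2 values centred on their own mean, among 8648 probe sets of other genes. The nearest to met were eif4e3, a cap-binding protein (distance 0.056), si:dkeyp-1h4.9 (0.062) and znrf2a, a ubiquitin ligase (0.062). Of these, eif4e3 (1.18 ± 0.19, adjusted p = 0.0465) and znrf2a (1.27 ± 0.18, adjusted p = 0.0376) rose in limma's test. Both were picked for matching met on these 4 arrays, so a difference near that of met follows from the choice. The nearest to myca were hsbp1a (0.014), celf1 (0.023) and psmf1 (0.023), none of which passed. The nearest to the first mycn probe set were bora (0.025), asb2b (0.034) and pccb (0.042), and to the second igfbp5b (0.029), si:ch211-212k18.5 (0.074) and tnrc6c2 (0.086). Only 4 arrays stand behind each distance.

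Around the receptor, genes of the hepatocyte growth factor pathway gave no call, which with 2 arrays a group does not show that they were alike. Of 65 listed, 38 had a probe set and 36 were tested, with 0 higher and 0 lower in limma and a median difference of 0.047. At limma's unadjusted p under 0.05 there were 5 higher and 0 lower, beside 11.6% and 6.10% of all probe sets. Groups were separate for 8 in the higher and 6 in the lower direction, beside 25.1% and 24.7% of all probe sets. The ligand genes hgfa and hgfb and the sister receptor genes mst1ra and mst1rb are named for no probe set and were not analysed here. The 7 genes of the ligand family and its activation, inhibitors such as spint2 among them, all had values above 0 in their brightest probe set. Over all probe sets 48.0% lay above 0. mst1 (0.046 ± 0.26), spint1a (0.21 ± 0.26) and spint1b (0.11 ± 0.18) were within 1 SE of 0. Dimmer spint1b probe sets had −0.014, 0.45 and 0.14. Of the 7, plg, the plasma protease precursor plasminogen, had 7.79 and 6.44 in the morphants and 5.41 and 5.85 in the controls (1.48 ± 0.46, adjusted p = 0.198 in limma). spint2, an inhibitor of the proteases that activate the ligand, had 9.15 and 8.76 in the morphants and 8.42 and 8.36 in the controls (0.56 ± 0.20, adjusted p = 0.235).

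Adaptors and kinases downstream of met spread on both sides of 0, with 11 of 18 above it and a median of 0.059. ptpn11b, a phosphatase that carries receptor signals to Ras, had 9.52 and 9.28 in the morphants and 8.77 and 8.89 in the controls (0.57 ± 0.18, adjusted p = 0.198 in limma). shc1, an adaptor, had 9.93 and 9.79 in the morphants and 9.39 and 9.28 in the controls (0.53 ± 0.17, adjusted p = 0.201). gab1, the docking protein of met, had 0.31 ± 0.21. Genes that damp receptor signalling had 9 of 10 values below 0 and a median of −0.14, with 0 calls in limma and 0 at unadjusted p under 0.05. Of the 9, 5 had separate groups, beside 24.7% of all probe sets, of which 48.0% lay above 0. Among the 5, spred1 differed by only −0.036 ± 0.16. These values are of each gene's brightest probe set. Dimmer ones of spry2 (1.37 ± 0.49, below the filter) and spred1 (0.39 ± 0.20, and 0.76 ± 0.25 below the filter) had separate groups in the higher direction. Another of spred1 was at 0.049. Other dimmer probe sets of spry2, dusp6, socs1a and errfi1a lay below 0. The feedback inhibitors socs3a (−0.37 ± 0.16) and spry4 (−0.34 ± 0.16) had the strongest statistics, with adjusted p of 0.320 and 0.354. On the morphant arrays spry4 had 8.82 and 8.81, against 9.15 and 9.16 on the control arrays, so both groups were tight and the difference small. cd44a, a co-receptor, had 0.27 ± 0.38.

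Without a probe set for bcl2, its relatives were read. Proteins of this family either guard the outer mitochondrial membrane, open it, or, as BH3-only proteins, tip the balance toward opening. Of 41 genes listed, downstream partners and the p53 regulator mdm2 included, 24 had a probe set and all 24 were tested. In limma there were 0 higher and 0 lower calls (2 and 1 at unadjusted p under 0.05), a median of 0.030, and separate groups for 7 in the higher and 5 in the lower direction. Over all probe sets, 11.6% and 6.10% had such an unadjusted p, and 25.1% and 24.7% had separate groups.

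Among the guardians, bcl2l1, the gene of Bcl-xL, was lower on both morphant arrays in both of its probe sets. The brighter had 7.61 and 7.32 in the morphants and 8.02 and 7.94 in the controls (−0.52 ± 0.18, unadjusted p = 0.0346, adjusted p = 0.237 in limma). The dimmer had 6.33 and 6.33 in the morphants and 7.18 and 7.07 in the controls (−0.79 ± 0.16, unadjusted p = 0.00381, adjusted p = 0.0832). An unadjusted p under 0.05 in this direction was found in 6.10% of probe sets. The bright mcl1a, another guardian, had 12.45 and 12.48 in the morphants and 12.29 and 12.42 in the controls (0.11 ± 0.16). mcl1b had −0.28 ± 0.24 and bcl2l10 had 0.014 ± 0.17.

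Of the pore formers, baxa had 8.99 and 9.02 in the morphants and 9.53 and 9.29 in the controls (−0.41 ± 0.18, adjusted p = 0.323 in limma), and bokb had 0.50 ± 0.35. Of 8 BH3-only genes 4 lay above 0 and 4 below. bik had 8.57 and 8.24 in the morphants and 7.58 and 7.35 in the controls (0.94 ± 0.20, adjusted p = 0.0924). bbc3, the gene of Puma, had 9.46 and 8.49 in the morphants and 8.30 and 8.04 in the controls (0.80 ± 0.35, adjusted p = 0.325), with morphant replicate 1 the highest. Of the other genes in the list, mdm2, the ubiquitin ligase of p53, had 10.02 and 9.59 in the morphants and 8.91 and 8.94 in the controls (0.88 ± 0.21, adjusted p = 0.115). aifm1 had −0.38 ± 0.19 (adjusted p = 0.395). bik and mdm2 passed the threshold with a pseudocount of 64 and with the variance prior that follows signal, and bik also with the lowest 50% left out. More probe sets were called in all under these settings, as given for met.

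**Figure D3:**
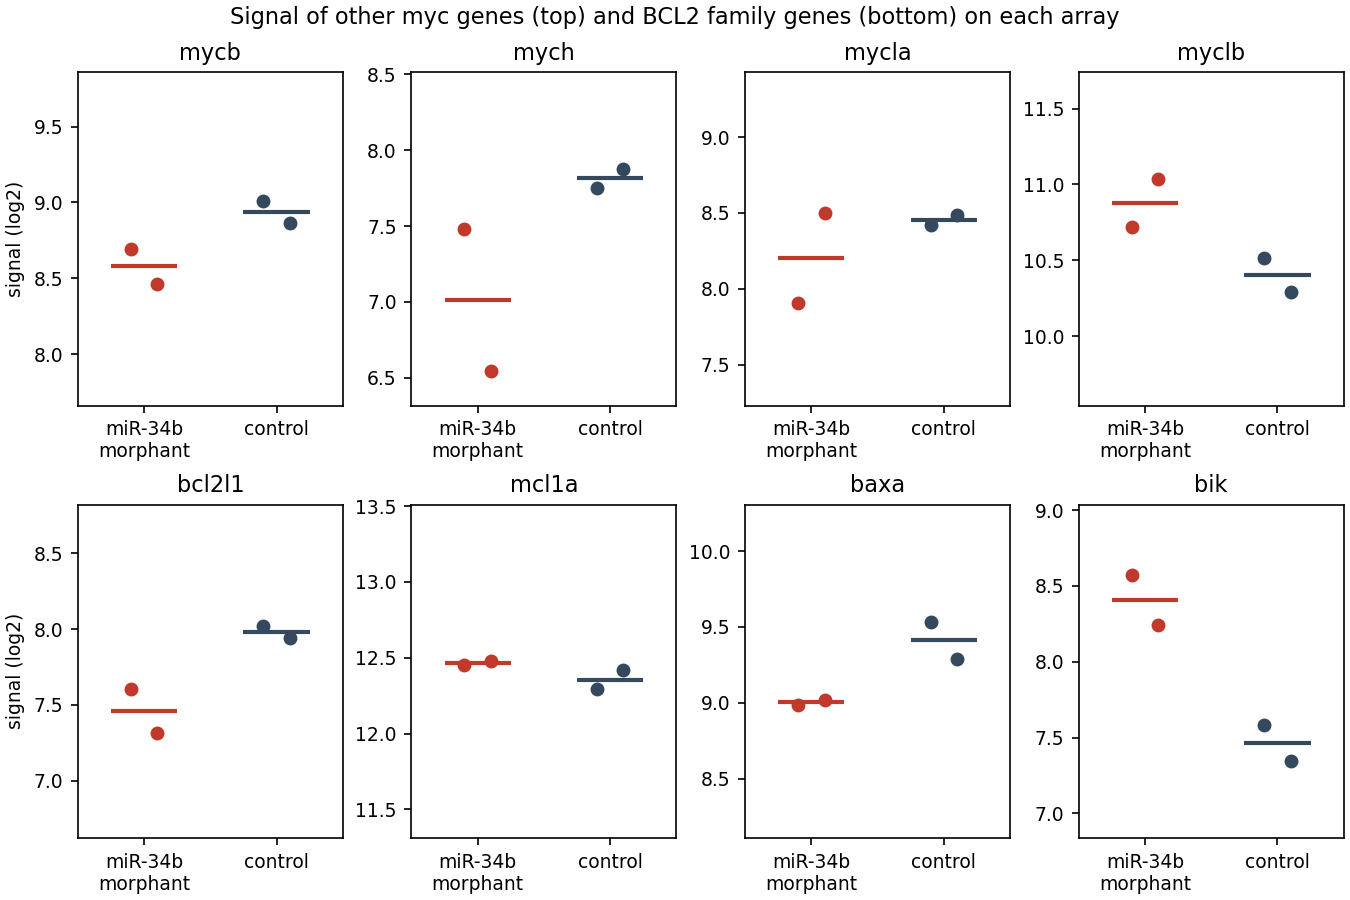
Log2 signal (vertical axes, each spanning 2.2 units) of the other myc genes and of 4 BCL2 family genes on the miR-34b morphant arrays (red) and the control arrays (dark), with group means as bars and the brightest probe set of each gene. bik, myclb and, by only 0.031 between the closest arrays, mcl1a lie higher on both morphant arrays. bcl2l1, baxa, mycb and mych lie lower on both, and none of these genes passed the adjusted threshold.

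The other myc genes did not share one direction. Zebrafish carry several myc genes, and all 4 others listed had a probe set. myclb, an L-myc gene, had 10.72 and 11.03 in the morphants and 10.51 and 10.29 in the controls (0.48 ± 0.20, adjusted p = 0.302 in limma). mych had 7.48 and 6.55 in the morphants and 7.75 and 7.87 in the controls (−0.80 ± 0.33, adjusted p = 0.302). mycb, the second c-myc gene, had 8.69 and 8.47 in the morphants and 9.01 and 8.87 in the controls (−0.36 ± 0.18, adjusted p = 0.380). The groups of mycb were separate in the direction opposite to those of myca. mycla had −0.25 ± 0.24, with overlapping groups.

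The wider MYC network had 0 calls in limma among 19 genes tested of 34 listed (2 higher and 0 lower at unadjusted p under 0.05, beside 11.6% and 6.10% of all probe sets), with a median of 0.022. Of its 4 partners and antagonists, 3 lay below 0, with a median of −0.13. max, the obligate partner, had −0.14 ± 0.18 in its brighter probe set and −0.31 ± 0.18 in the other, and mxd4, a repressor that competes for max, had −0.39 ± 0.34. Among cofactors, ruvbl1 had 12.22 and 12.25 in the morphants and 11.27 and 11.39 in the controls (0.91 ± 0.16, adjusted p = 0.0638 in limma). ruvbl2 had 9.22 and 8.57 in the morphants and 8.22 and 8.05 in the controls (0.76 ± 0.26, adjusted p = 0.224). Both encode ATPases that act with MYC in chromatin complexes and also in the assembly of ciliary dyneins. ruvbl1 passed the threshold in the same 4 alternatives as met, where more probe sets were called in all.

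Messages known in mammals as MYC targets gave no call, and most of their values were below 0. Of 76 listed, 55 were tested, with 0 higher and 0 lower in limma. At its unadjusted p under 0.05 there were 1 higher and 2 lower, beside 11.6% and 6.10% of all probe sets. The list had a median of −0.13 against −0.017 for all probe sets. Of its values 17 lay above 0 and 38 below, while 48.0% of all probe sets lay above 0. Groups were separate for 3 in the higher and 25 in the lower direction, beside 25.1% and 24.7% of all probe sets. The median lay between −0.21 and −0.11 over the 14 alternatives. Genes listed under nucleolus and ribosome synthesis had a median of −0.10 over 30. Among them npm1a, nucleophosmin, had −0.38 ± 0.17 and imp4, of the small-subunit processome, had 0.62 ± 0.23. Genes of metabolism and translation had a median of −0.18 over 19. Of these ldha, lactate dehydrogenase, had 9.64 and 9.93 in the morphants and 10.32 and 10.46 in the controls (−0.61 ± 0.19, adjusted p = 0.191 in limma). pkma, pyruvate kinase, had −0.40 ± 0.17. Cell cycle genes had a median of −0.16 over 6, with the replicative helicase subunits mcm5 at −0.82 ± 0.31 and mcm4 at −0.49 ± 0.20. The list does not set whether MYC raises or lowers each gene. Skeletal muscle markers lay below 0 too (17 of 17 tested). The part of MYC or of muscle cells in these values was not tested.

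Among other genes described as miR-34 targets in other systems, 2 of 22 tested rose and 0 fell in limma, beside 2.49% and 0.12% of all probe sets, with a median of −0.10. Before adjustment 3 higher and 3 lower values had a p under 0.05, beside 11.6% and 6.10% of all probe sets. Of the 50 listed, 9 stand in another of the 5 pathway lists. The list was chosen with earlier results of these data known, so its counts beside these shares are no test of it. The 2 called were e2f5, a cell cycle factor of multiciliation (7.92 and 7.44 in the morphants, 5.12 and 5.72 in the controls), and gmnn, geminin (9.65 and 9.60 in the morphants, 7.49 and 8.11 in the controls). Their differences were 2.26 ± 0.28 (adjusted p = 0.0283 in limma) and 1.83 ± 0.25 (adjusted p = 0.0320). Both calls were also lost without control replicate 1. jag1b, a Notch ligand, had 7.80 and 6.73 in the morphants and 6.07 and 6.29 in the controls (1.08 ± 0.37, adjusted p = 0.224). notch2, a receptor, had −0.41 ± 0.16 (adjusted p = 0.272) and vegfaa, the endothelial growth factor, −0.47 ± 0.17 (adjusted p = 0.244). Of the values tested, 9 lay above 0 and 13 below, while 48.0% of all probe sets lay above 0. A further 8 listed genes with a probe set were below the filter and are not in these counts.

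**Figure D4:**
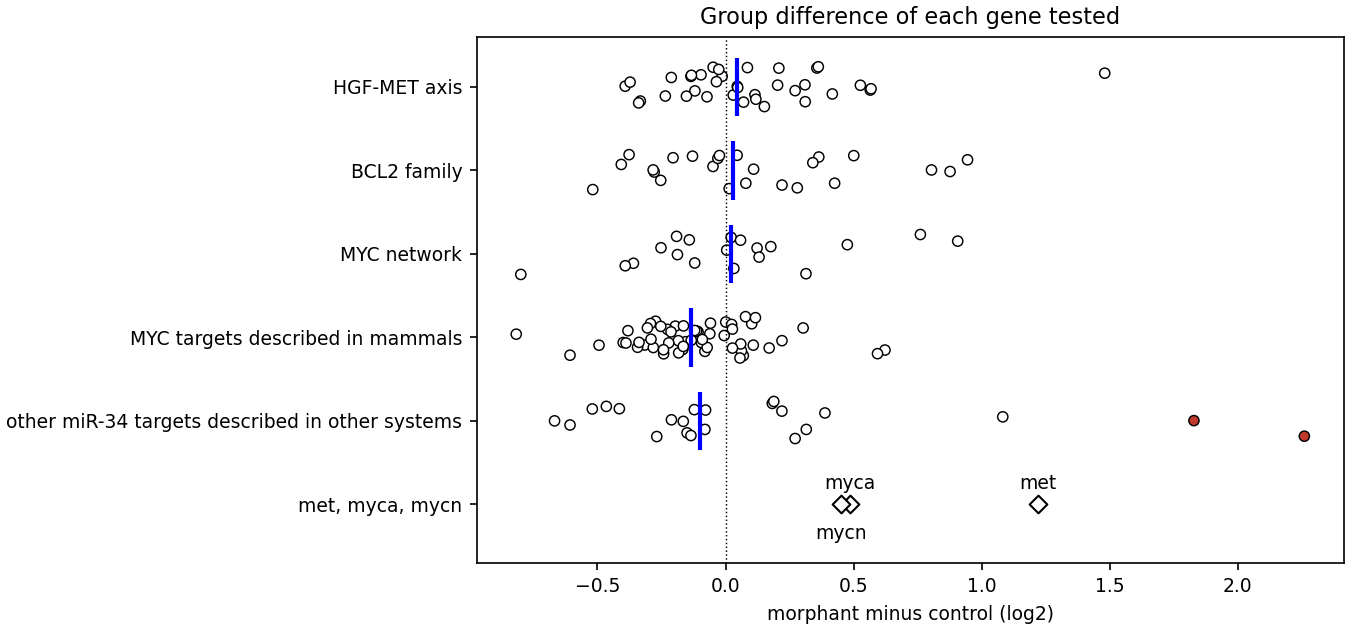
Morphant minus control difference (horizontal axis, log2) of each gene tested in the 5 pathway lists, with the list median as a blue bar and filled points where the adjusted p was under 0.05; the lowest row holds the member probe sets in the filtered fit (diamonds). The 2 filled points are e2f5 (2.26) and gmnn (1.83), met stands at 1.22, and the medians lie between −0.13 and 0.047.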

How the data were processed

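The log2 signals per probe set were used as deposited by the authors; MAS5, which summarises probes and scales each array, is named in the submitters' processing notes without a version. The genome build, the detection calls and the scanner files were not used here. Control probe sets (115) and the dimmest 25% of the rest (mean of the 4 arrays) were left out. limma 3.58.1 (R 4.3.3) fitted the differences (group as the only term, moderated variances), and p-values adjusted by the Benjamini-Hochberg method over all 11626 probe sets. The fit was tested on simulated data.

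Of 15502 probe sets, 10795 had 1 symbol, 135 several and 4572 none in the annotation, with symbols updated through RefSeq gene numbers of assembly GRCz12tu. A gene's brightest probe set stands for it in a list. Members and lists were chosen with earlier results of these data known. Named genes are every member, the genes of each list and role that passed or had the strongest statistic, and the 3 nearest patterns, with a few relatives added after their values were seen. Lists were not tested as sets. Alternatives covered filter, pseudocount, scaling, variance prior, moderation, replicate block and each array left out. The small number of arrays limits the precision.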

Additional observations from a re-analysis of the deposited data

How the results depend on the processing

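The 14 alternatives left the met difference above 0 throughout (1.00 to 1.44), and it passed the threshold in 4 of them, at 1.22 with the lowest 50% left out, 1.16 and 1.00 with pseudocounts of 16 and 64, and 1.22 with a trended, robust variance prior. In those 4, taken in that order, 382, 402, 500 and 508 probe sets were called higher, against 290 as reported. The myca difference and that of the first mycn probe set (0.14 to 0.76) kept their sign and passed in none of 13. The second mycn probe set reversed to −0.59 without morphant replicate 1 and had 0.93 without morphant replicate 2. The lowest 50% held myca, mycn and e2f5, so they have no value there. Probe sets called higher (290) became 0 without the filter and with unmoderated p-values, 500 with a pseudocount of 64, 508 with the trended prior, and 0 to 53 with 1 array left out. Those called lower (14) became 0 without the filter and unmoderated, 63 with the lowest 50% left out, 38 and 82 with pseudocounts of 16 and 64, 8 with quantile scaling, 7 with cyclic loess, 101 with the trended prior, and 0 to 7 with 1 array left out. At unadjusted p under 0.05 the counts without the filter were 1380 and 647, unmoderated 935 and 494, and 1089 and 828 or 1276 and 727 without morphant replicate 1 or 2. Calls among BCL2 family genes became 1 with the lowest 50% left out (bik), and 2 with a pseudocount of 64 and with the trended prior (bik and mdm2). In the MYC network 1 gene, ruvbl1, was called in each of those settings and with a pseudocount of 16. Of the 2 calls among other miR-34 targets, 0 were made without the filter and unmoderated, 1 with the lowest 50% left out and with the replicate block, and 0 to 2 with 1 array left out. With the replicate number as a block, met had 1.22 ± 0.21 (adjusted p = 0.0768 in limma) and 196 probe sets were higher and 11 lower. The labels do not say that a number marks a shared set, and same-numbered arrays correlated at 0.021 in their deviations over probe sets. The cause of these changes was not tested. Signals of mycn near the absent-sequence controls limit what its values can show.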
